A study of Mus musculus with 8 samples.

Results

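Postn, Scx, Tnmd, Mkx, Spon1 and Tgfbi are genes used to mark the dental follicle and the periodontal ligament, and their levels were compared in mouse molars with and without a deletion of Runx2. They were chosen by name, with earlier results of these data known, and all 6 were found among the 17631 genes of the authors' deposited table. RNA came from the apical part, where the root grows, of lower first molars of C57BL/6 mice at postnatal day 7.5. All animals carried 2 floxed copies of Runx2, written Runx2fl/fl, and per the labels tamoxifen was given at postnatal day 3.5. The 4 control libraries were Runx2fl/fl alone, and the 4 mutant libraries were Gli1-CreERT2;Runx2fl/fl, which adds a tamoxifen-inducible recombinase driven from Gli1. Since the driver was present in the mutants alone, its own effects and those of losing Runx2 cannot be told apart, and the recombinase acts only in cells where Gli1 is active. The labels do not say whether a library is 1 animal, so the p-values rest on a spread between libraries that may be technical.

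The dental follicle is the mesenchymal sheet around the tooth germ, and its cells form the periodontal ligament, the cementum on the root and the bone of the socket. The ligament is a collagen-rich, tendon-like tissue that anchors the root in bone. Scx is a basic helix-loop-helix transcription factor of tendon and ligament progenitors, and Mkx (Mohawk) is a homeobox factor of the TALE class needed for normal collagen fibrils in tendon. Tnmd (tenomodulin) is a membrane glycoprotein of mature tendon and ligament cells that lies downstream of Scx. Postn (periostin) and Tgfbi are secreted matrix proteins built from fasciclin domains, they bind collagen and integrins, and both respond to TGF-beta. Spon1 (F-spondin) is a secreted protein with thrombospondin repeats.

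The table holds 1 mean per group and no values per library. Levels below are therefore the authors' group means of normalised signal on a linear scale, without a spread, and whether the signal is divided by gene length is not given in the sources used here, so levels of different genes are not ranked. Folds and adjusted p-values come from the authors' deposited table unless a sentence names another source. The log2 ratio of mutant over control was computed from that table. An approximate 95% interval was drawn from the error that the authors' p implies for it under a normal approximation. The means sum to 955256 over the mutant column and 1050684 over the control column and do not give the depth of any library.

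Promoters of Postn, Tnmd and Tgfbi stood in the RefSeq table used here (GRCm38.p6) and are shown because the deleted gene encodes a DNA-binding factor and because Postn differed by more between the groups than the other pair did. They lie on the plus strand at chr3:54360857-54361106 for Postn, chrX:133850758-133850979 for Tnmd and chr13:56609336-56609522 for Tgfbi. Each is printed 5′ to 3′ up to the transcription start, without bases that GENCODE places in the first exon, and capitals mark the TATAAA motif.
Postn: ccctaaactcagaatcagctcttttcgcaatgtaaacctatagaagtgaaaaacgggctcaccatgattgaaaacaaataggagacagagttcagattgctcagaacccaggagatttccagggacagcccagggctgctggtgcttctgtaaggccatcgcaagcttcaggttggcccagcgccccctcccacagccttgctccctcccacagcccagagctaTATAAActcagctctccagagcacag
Tnmd: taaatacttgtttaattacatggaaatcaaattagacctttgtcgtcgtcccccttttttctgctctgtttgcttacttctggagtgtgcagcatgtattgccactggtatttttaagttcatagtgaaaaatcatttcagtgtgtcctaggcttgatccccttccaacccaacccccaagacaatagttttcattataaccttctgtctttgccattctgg
Tgfbi: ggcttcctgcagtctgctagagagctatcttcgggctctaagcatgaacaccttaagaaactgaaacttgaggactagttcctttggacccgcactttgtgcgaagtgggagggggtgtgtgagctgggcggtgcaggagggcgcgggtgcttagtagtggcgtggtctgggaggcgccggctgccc

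The 250 bases before each of these 3 RefSeq starts were searched. Members on chromosome 18 were left out of the promoter lookup, so no window of Mkx was searched. Postn held TATAAA on its own strand, beginning 26 bases before the start, a motif found in 7.59% of the 32851 promoters of that table. The RUNX core TGTGGT, searched on both strands and present in 14.0% of all promoters, was in none of the 3 windows. Nor was TGCGGT, the other RUNX core (both strands, 5.1% of promoters), or the E-box CANNTG that basic helix-loop-helix factors such as Scx bind (66.2% of promoters). The Tgfbi window held 15 CG dinucleotides, against 4 for Postn, 2 for Tnmd and a median of 6 over all promoters. A missing match says only that these letters are not in these windows.

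Periostin and Mohawk had higher means in the mutant molars, F-spondin had a lower mean, and no member passed the threshold of 0.05 on the adjusted p. Postn was 1.63-fold higher, Mkx 1.59-fold higher and Spon1 1.71-fold lower in the authors' deposited table. The scleraxis, tenomodulin and Tgfbi genes differed by less, between 1.08-fold and 1.28-fold. By the authors' test with Benjamini-Hochberg adjustment over 17631 genes, 0 of 6 members passed, where 139 genes (0.788%) did. At an adjusted p of 0.1, 3 of 6 passed (Postn, Spon1 and Mkx), against 3.64% of all genes. The members were chosen with earlier results of these data known, so their share cannot be read as an excess over that percentage. At an unadjusted p under 0.05, 2 members were higher and 1 was lower, against 9.89% and 9.4% of all genes. The members did not share a direction, with 3 means higher and 3 lower (50.6% and 49.4% over all genes) and a median log2 ratio of 0.06, beside a median of 0.00 over all genes.

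**Figure D1:**
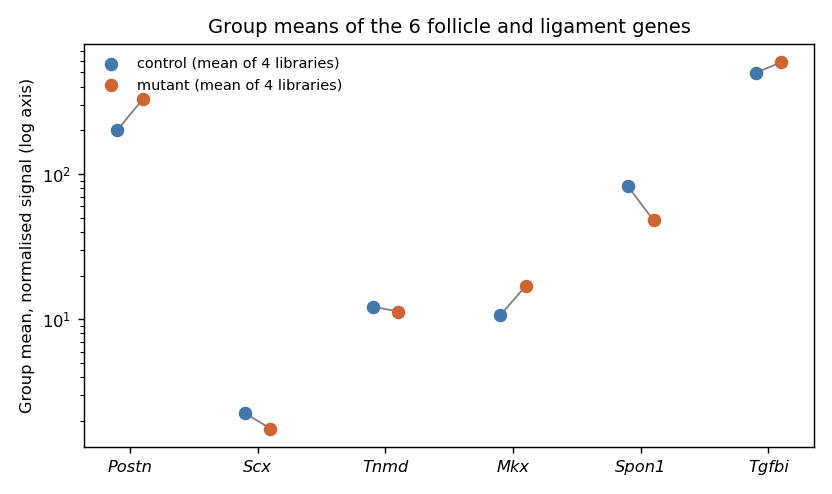
Group means of the 6 genes in normalised signal on a log axis, with each point the authors' mean of 4 libraries and a line joining control to mutant; no error bars can be drawn because the table has no values per library. Postn goes from 200.2 to 326.7, Mkx from 10.7 to 17.0 and Spon1 from 82.3 to 48.0, while the lines of Scx, Tnmd and Tgfbi are flatter.

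Among the transcription factors, Mkx and Scx had mean differences of opposite sign. Mkx (ENSMUSG00000061013, chromosome 18, 6934518 to 7004780, minus strand, GRCm38, 7 exons) had a mean of 10.7 in the control and 17.0 in the mutant in the authors' deposited table. Its log2 ratio was 0.67 (95% interval 0.24 to 1.10), with an adjusted p of 0.0888 (unadjusted 0.00246) by the authors' test over all genes. Of the 9307 genes whose higher mean reached 10, 0.591% had a higher ratio than Mkx. An annotated transcript, AC148004.2, overlaps exons of Mkx on the same strand and is not listed in the table, so reads from it could have been counted to Mkx.

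Scx (ENSMUSG00000034161, chromosome 15, 76457452 to 76459458, plus strand, 2 exons) had low means of 2.27 in the control and 1.77 in the mutant. In the authors' deposited table its adjusted p was 0.564, and the log2 ratio was -0.36 (95% interval -1.01 to 0.30). That interval spans ratios from 0.496 to 1.23, so neither a 2-fold loss nor a small gain of Scx could be told from no difference in these libraries. The gene overlaps Bop1, a ribosome biogenesis gene on the opposite strand, without sharing exon sequence. Bop1 had a mutant mean of 26.7 and a control mean of 28.1 (adjusted p = 0.629), and whether the counting used strand is not given in the sources used here.

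Tnmd (ENSMUSG00000031250, chromosome X, 133850980 to 133865577, plus strand, 7 exons), the differentiation gene downstream of Scx, was nearly level. Its means were 12.3 in the control and 11.3 in the mutant in the authors' deposited table, a log2 ratio of -0.11 at an adjusted p of 0.830. The 95% interval ran from -0.60 to 0.37, which are ratios of 0.662 and 1.29, and p missing the threshold does not show that the groups were equal. Mkx and Tnmd have transcripts of similar GC content (43.2% and 43.0%) but unlike length (3650 and 1353 bases). Their log2 ratios were 0.67 and -0.11, and the difference between these genes was not tested, because the table gives no values per library.

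The matrix genes gave the widest spread. Postn (ENSMUSG00000027750, chromosome 3, 54361109 to 54391037, plus strand, 22 exons) had means of 200.2 in the control and 326.7 in the mutant in the authors' deposited table, a difference of 126.5 units. The log2 ratio was 0.71 (95% interval 0.31 to 1.11), the unadjusted p 0.000532 and the adjusted p 0.0590. It ranked 159th of all genes by p, and 0.473% of the 9307 genes whose higher mean reached 10 had a higher ratio. Adjusted over those 9307 genes alone, of which 154 (1.65%) then passed, the same p gave 0.0435. Over the 14168 genes whose higher mean reached 1, of which 168 (1.19%) passed, it gave 0.0483, so the call of Postn turned on which genes entered the adjustment. Rescaling the groups without the 10 most abundant genes gave 0.0497, where 168 of all genes (0.953%) passed, 12 of them with an unadjusted p over 0.05 in the authors' deposited table.

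Tgfbi (ENSMUSG00000035493, chromosome 13, 56609523 to 56639562, plus strand, 17 exons), the fasciclin relative of Postn, had means of 497.9 in the control and 587.6 in the mutant. It was 1.18-fold higher in the authors' deposited table, with a log2 ratio of 0.24 (95% interval -0.01 to 0.49) and an adjusted p of 0.285. Under the normal approximation the implied error of its log2 ratio was 0.129, against 0.204 for Postn and 0.333 for Scx. The difference from Postn depends on that approximation. With a t distribution (6 residual degrees of freedom) the intervals of Tgfbi (-0.02 to 0.50) and Postn (0.45 to 0.96) were about equally wide. As ratios, the interval of Tgfbi ran from 0.991 to 1.41 and that of Postn from 1.24 to 2.15, so the intervals overlap, and the difference between them was not tested.

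Spon1 (ENSMUSG00000038156, chromosome 7, 113765998 to 114043370, plus strand, 16 exons) went the other way. Its means were 82.3 in the control and 48.0 in the mutant in the authors' deposited table, with a log2 ratio of -0.78 (95% interval -1.22 to -0.33). The unadjusted p was 0.000587 and the adjusted p 0.0608, 170th of all genes by p. Of the 9307 genes whose higher mean reached 10, 0.484% had a lower ratio. Adjusted over those genes (154 called) the p was 0.0459, and over the 14168 whose higher mean reached 1 (168 called) it was 0.0497, so the call of Spon1 turned on the same choice.

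**Figure D2:**
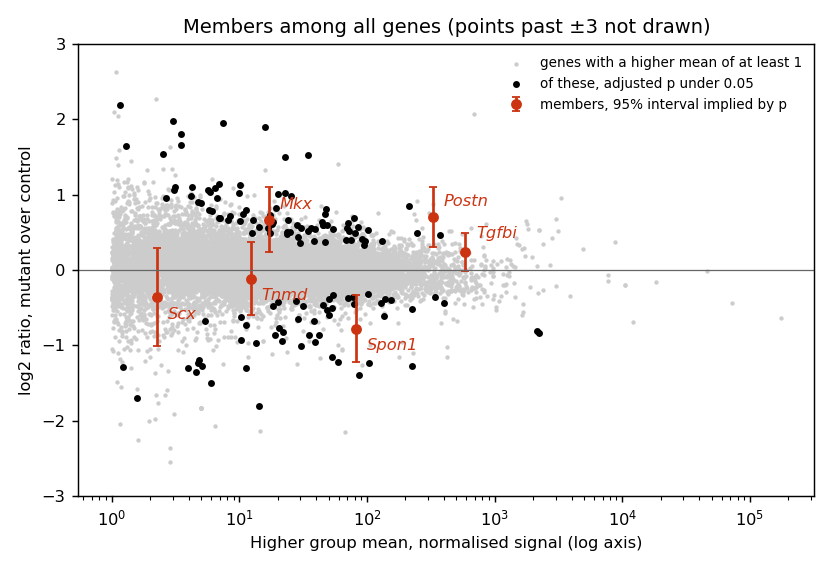
Higher of the 2 group means (normalised signal, log axis) against the log2 ratio of mutant over control for every gene whose higher mean reached 1 (grey), genes with an adjusted p under 0.05 (black) and the 6 members (red, with the 95% interval implied by the authors' p). Postn, Mkx and Spon1 sit at the edge of the grey cloud and their intervals leave out 0, whereas those of Scx, Tnmd and Tgfbi include it.

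The ratios of all genes ran with the GC content of their transcripts, and the members differ in it. Over protein-coding genes whose higher mean reached 1, cut into 8 groups of equal size by GC content, the median log2 ratio went from 0.20 in the GC-poorest to -0.12 in the GC-richest. Postn (44.1% GC), Mkx and Tnmd were in the second group, whose median was 0.10, and Scx (63.6%) in the GC-richest. Spon1 (49.7%) was in the fourth, with a median of 0.01, and Tgfbi (52.9%) in the sixth, with a median of -0.06. Postn, Mkx and Scx had log2 ratios of the same sign as their group's median, and Tnmd, Spon1 and Tgfbi of the opposite sign.

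With the trend of the signed z on GC content and transcript length subtracted, no member passed, and 30 of all genes (0.171%) did, against 139 before. Of these 30, 12 were among the 139, and 2 had a deposited unadjusted p over 0.05. Spon1 then had a log2 ratio of -0.87 (adjusted p = 0.0596), while Postn went to 0.56 with its adjusted p up from 0.0590 to 0.215, and Mkx to 0.48 with its adjusted p up from 0.0888 to 0.338. Scx changed sign, to 0.16 (adjusted p = 0.865). With the trend of the log2 ratio itself subtracted, an alternative added after the data were seen and given as values with no test, the log2 ratios were 0.59 for Postn, 0.53 for Mkx, -0.83 for Spon1, 0.29 for Tgfbi, -0.19 for Tnmd and -0.13 for Scx. Among the genes of the lists described next, 11 were called by the authors' test, and 0 of these 11 kept the call when the signed z trend was subtracted (adjusted p from 0.0542 to 0.365).

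**Figure D3:**
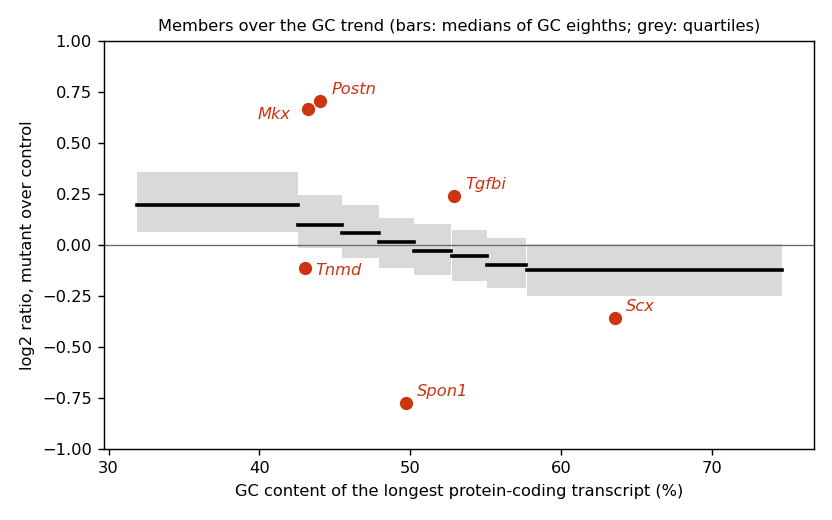
GC content of the longest protein-coding transcript (%) against the log2 ratio of mutant over control, with red points for the members, black bars for the medians of 8 equal groups of protein-coding genes and grey for their quartiles. The bars step down from 0.20 to -0.12, Postn and Mkx lie above the quartiles of the second group, and Spon1 lies well below those of the fourth.

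The remaining genes of follicle and ligament, a list of 18 chosen with earlier results of these data known, had 15 higher and 3 lower means (median log2 ratio 0.11). Of these, 3 rose past the threshold, against 0.471% of all genes called higher. Ogn, which encodes a leucine-rich proteoglycan (osteoglycin), rose 1.80-fold, Col6a3, a chain of microfibrillar collagen VI, rose 1.41-fold, and Col14a1, a fibril-associated collagen, rose 1.31-fold in the authors' deposited table. All 3 lost the call with the signed z trend subtracted (adjusted p = 0.290 for Ogn, 0.0920 for Col6a3 and 0.103 for Col14a1). Of 17 measured tendon and ligament matrix genes none passed, 2 were higher at an unadjusted p under 0.05 and the median was 0.08. Those with the lowest p were Ecm2 (log2 ratio 0.34, adjusted p = 0.167), Fibin (0.76, adjusted p = 0.174) and the scarce Kera, with means of 0.411 and 0.190.

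None of 15 genes that regulate tendon and ligament formation passed. Lower means were found for 10 of them (median log2 ratio -0.15), with 4 at an unadjusted p under 0.05. Eya2, a transcriptional coactivator, had a log2 ratio of -0.73 (adjusted p = 0.160 in the authors' deposited table). Gdf5, a BMP family ligand of joints and tendons, had a mutant mean of 7.87 against 10.9 (adjusted p = 0.206). Scx acts with E proteins and is held back by Id proteins, and of 10 such partners and inhibitors none passed and 1 was higher at an unadjusted p under 0.05 (5 means higher, 5 lower, median 0.00). That gene was the E protein gene Tcf4, with a log2 ratio of 0.26 (adjusted p = 0.115), while Tcf3 had -0.19 and Id1 -0.09. Of 12 relatives of Mkx in the TALE class none passed and 4 had an unadjusted p under 0.05 (6 means higher, 6 lower), with Irx3 at -0.43 (adjusted p = 0.114), Tgif1 at -0.22 and Irx5 at -0.18. Among 4 relatives of Tnmd none passed and 1 had an unadjusted p under 0.05, Itm2a, at a log2 ratio of 0.38 (adjusted p = 0.0896). Cnmd stood at 0.33 and Itm2b at -0.23.

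The surroundings of the matrix members were mixed as well. The other 2 fasciclin genes, Stab1 (log2 ratio 0.30, adjusted p = 0.337) and the scarce Stab2 (0.75, adjusted p = 0.336), which encode scavenger receptors of vessels and macrophages, had higher means without a call. Of 9 matrix partners of periostin none passed (median 0.04), with Fbn1, the microfibril gene and the 1 with an unadjusted p under 0.05, at 0.39 (adjusted p = 0.182), Nov at 0.34 and Bmp1 at -0.19. None of 10 integrin receptors and adhesion kinases passed, and 2 had an unadjusted p under 0.05 (median -0.05). The collagen receptor gene Itga1 had a log2 ratio of 0.58 (adjusted p = 0.131 in the authors' deposited table), Ilk a log2 ratio of -0.17 and Itga3 of -0.19.

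Relatives of Spon1 with thrombospondin repeats stood on both sides. Of 10 measured besides Spon1 none passed, while 4 were higher and 2 lower at an unadjusted p under 0.05 (median 0.16). Spon2, the other spondin, had the opposite sign to Spon1, with a log2 ratio of 0.54 (adjusted p = 0.0808 in the authors' deposited table). With the signed z trend subtracted it was called higher (0.68, adjusted p = 0.0458). Rspo1, a WNT agonist, had means of 3.02 in mutant and 5.62 in control molars (adjusted p = 0.0547). Of 5 genes of F-spondin receptors, 0 were called by the authors' test and 0 had an unadjusted p under 0.05. App had a log2 ratio of 0.14, Aplp2 of -0.18 and Lrp8 of 0.32.

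TGF-beta is a known inducer of Postn, Tgfbi and Scx. A list of 17 TGF-beta ligands, receptors and activators also held SMAD genes, with the inhibitory Smad7, and the repressor genes Ski and Skil. None of the 17 passed, with 3 higher, Ski among them, and 3 lower at an unadjusted p under 0.05 (median log2 ratio -0.06). In the authors' deposited table Tgfb1 had a mutant mean of 303.2 against 375.0 (adjusted p = 0.0903), Tgfb2 180.0 against 148.9 (adjusted p = 0.120) and Ltbp2 39.2 against 32.1 (adjusted p = 0.139). Of 11 TGF-beta response genes 2 fell (0.318% of all genes were called lower), the contractile genes Acta2 (2.23-fold) and Tagln (2.01-fold), and Thbs1 had a log2 ratio of 0.74 (adjusted p = 0.173). The list's median was -0.06. Acta2 (adjusted p = 0.0542) and Tagln (adjusted p = 0.130) lost their calls with the signed z trend subtracted.

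**Figure D4:**
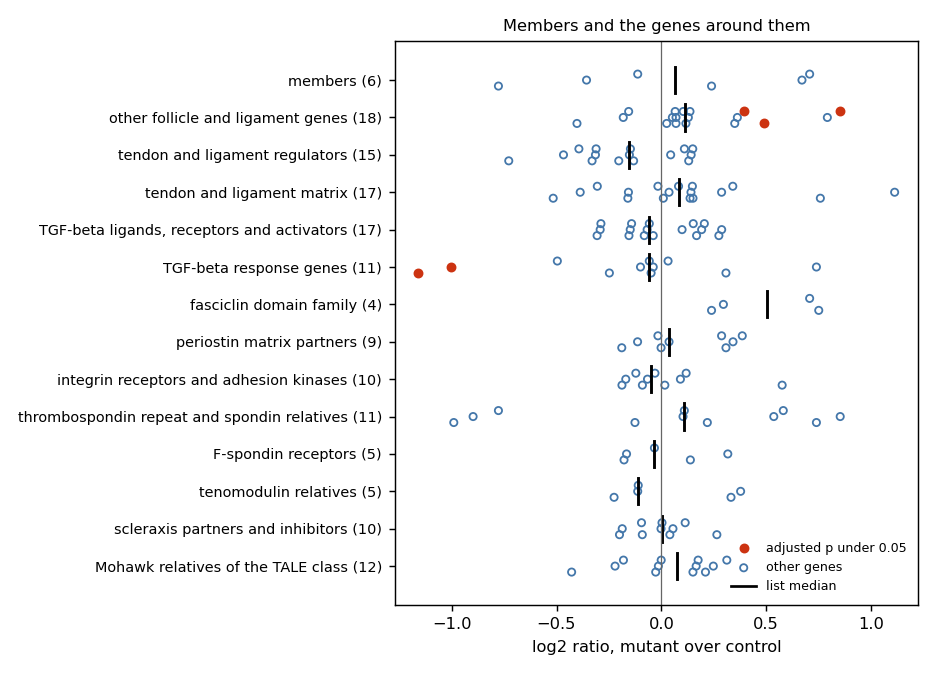
log2 ratio of mutant over control for each gene of the members and of the lists around them, with the number of measured genes in brackets, a black bar for each list's median and filled red points for genes with an adjusted p under 0.05. The 5 red points are Col14a1, Col6a3 and Ogn on the higher side and Acta2 and Tagln on the lower side; no member is red.

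Markers of other cells in the tissue differed as well, and in bulk RNA fewer cells of a type and less RNA per cell cannot be told apart. The targeted gene Runx2 had a mutant mean of 65.1 against 105.5 (adjusted p = 0.0646), and Runx1 and Runx3 had log2 ratios of 0.10 and 0.01. The driver gene Gli1 fell 1.95-fold (adjusted p = 0.0228 by the authors' test, 0.0629 with the signed z trend subtracted). All 13 osteoblast markers (summed mean 48928 in the mutant, 51055 in the control) and all 7 cementum markers (2417 and 3703) had lower means. Of these, Sp7 and Bglap fell, and Bglap stands in both lists; with the signed z trend subtracted neither was called (adjusted p = 0.118 and 0.365). Ibsp and Spp1, matrix genes of cementum and bone, had log2 ratios of -1.16 and -1.26 (adjusted p = 0.121 and 0.106). Reads of Bglap can be split with near-identical copies, which makes its value uncertain. Ameloblast markers summed to 178102 and 262629 (6 of 8 lower, Klk4 at -0.67), odontoblast markers to 9188 and 9703 (7 of 8 lower), and red blood cell markers to 425.8 and 946.5, with 7 of 7 lower and Hba-a1 called (adjusted p = 0.328 with that trend subtracted).

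Dividing cell markers were higher in 8 of 8 (summed means 223.6 and 168.8 in the mutant and control), with Mki67 called (adjusted p = 0.267 with the signed z trend subtracted). Smooth muscle and pericyte markers were higher in 7 of 10, with Acta2 and Tagln called lower (607.5 and 561.7), cartilage markers in 6 of 8 with Hapln1 called (353.1 and 309.6, adjusted p = 0.320 with that trend subtracted), endothelial markers in 5 of 7 (289.5 and 269.3) and dental epithelial markers in 5 of 8 (2899 and 2845). Among the dental epithelial markers Krt15 had a log2 ratio of 1.32 (adjusted p = 0.0545 by the authors' test). With the signed z trend subtracted Krt15 was called higher (1.63, adjusted p = 0.0182). Nerve markers were lower in 7 of 8 (171.9 and 201.0). Skeletal muscle markers were scarce, with 9 measured genes (8 of them lower) summing to 4.98 in mutant and 8.16 in control molars, and Myod1 and Myog are not listed. The part of these marker differences in the values of the 6 genes was not tested.

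**Figure D5:**
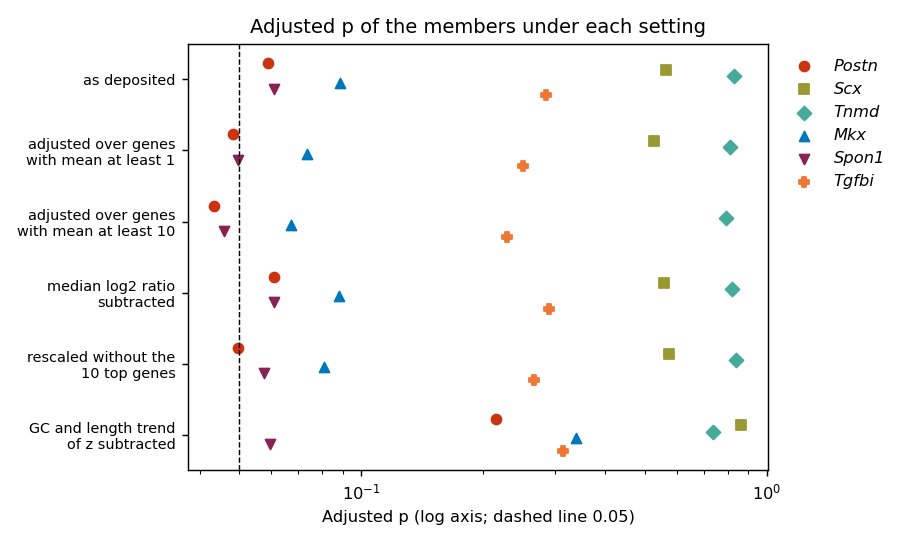
Adjusted p of each member (log axis, dashed line at 0.05) as deposited and under 5 other settings; Scx has no point where genes with a higher mean under 10 were left out. Postn is left of the line in 3 settings and Spon1 in 2, and Mkx, Tgfbi, Scx and Tnmd stay right of it wherever they have a point.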

How the data were processed

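RNA of 4 control and 4 mutant libraries was read as 2 x 50 nt, per the labels. The authors deposited 1 table of 17631 genes; the submitters' processing notes list STAR 2.6.1d, Partek and mm10 with no role, while annotation, counting, normalisation, filter and model are not stated there. The table holds, per the file headers, group means (normalised signal), a total that equals 4 times their sum for all genes (relative tolerance 1e-06) and so is a signal too, the ratio of knockout over wild type, the same as a signed fold score, the p-value and its step-up adjusted p-value. The deposited adjustment equals Benjamini-Hochberg over all genes. No library values exist in it, so the planned count and limma tests gave way to the planned fallback, the authors' adjusted p under 0.05.

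The log2 ratio and its implied error (log2 ratio over the normal quantile of p) were computed in Python 3.11.15 with scipy 1.17.1. GC content and length of the longest protein-coding transcript came from GENCODE M21 (GRCm38), matched by symbol for 17562 genes (99.6%). The smooth trend was fitted with mgcv 1.9.3 in R 4.3.3 on protein-coding genes whose higher mean reached 1, taking 28.0% of the variance of the signed z and 19.4% of that of the log2 ratio; it was tested on simulated data. The second was used for values only, because the implied error shrinks with the ratio. Subtraction also removes any real change that follows GC content or length. The members and the 26 other lists were chosen with earlier results of these data known. Genes named are the members, Runx2, its paralogs, Gli1 and up to 3 genes per list by lowest p. Bop1 and AC148004.2 were added for overlap, and Myod1 and Myog as unlisted markers. Col1a1, Alpl, Hacd1, Pthlh and Sost were added to describe the marker lists, and Ski, Skil and Smad7 to describe the TGF-beta list.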

Additional observations from a re-analysis of the deposited data

How the results depend on the processing

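No paired analysis was possible because the table holds no values per library, and leaving out each replicate was not run for the same reason. Adjusting over genes whose higher mean reached 1 called 2 members, Postn (log2 ratio 0.71, adjusted p = 0.0483) and Spon1 (-0.78, adjusted p = 0.0497), and over those that reached 10 called the same 2 (0.71, adjusted p = 0.0435, and -0.78, adjusted p = 0.0459), because fewer genes were tested; 168 of 14168 and 154 of 9307 genes then passed. Rescaling without the 10 most abundant genes called 1, Postn (0.72, adjusted p = 0.0497), and 168 genes, 12 of which had a deposited unadjusted p over 0.05, so the recomputed p is unreliable for ratios near 0. A threshold of 0.1 called 3 members (Postn 0.71, Mkx 0.67, Spon1 -0.78) and 641 genes in place of 139. Subtracting the GC and length trend of the signed z called 0 members and 30 genes, 12 of them among the 139, and reversed Scx (0.16), and the cause was not tested. Adjusted p over the settings ran from 0.0435 to 0.215 for Postn, 0.0672 to 0.338 for Mkx and 0.0459 to 0.0608 for Spon1. The added subtraction of the log2 trend gave values only. With a t distribution (6 residual degrees of freedom) the intervals were 0.45 to 0.96 for Postn, 0.34 to 1.00 for Mkx and -1.07 to -0.49 for Spon1. Scx, with means near 2, has the least precise ratio, and depth is unknown for all genes.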
